A study of Rattus norvegicus with 15 samples.

Results

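In all, 9 genes of the fibroblast growth factor (FGF) system, out of 17463 gene symbols counted, were followed through bulk RNA sequencing of rat mammary tumours: the ligands FGF1, FGF2, FGF7 and FGF10, the receptor kinases FGFR1, FGFR2, FGFR3 and FGFR4, and the receptor-like protein FGFRL1. The set was built around FGF1, which was chosen by its measured level in this same contrast, lower in the midkine libraries than in the vehicle libraries. For FGF1 the values of that contrast are therefore given as a description, without a test. Levels are given in CPM, a gene's reads per 1000000 reads of its library, after scaling between libraries.

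The midkine group held 9 tumours from Fischer rats that had received midkine protein 3 times a week, at 300 ug/kg per dose, over a 2-week course ahead of each of 2 intraperitoneal injections of the carcinogen N-nitroso-N-methylurea (NMU, 50 mg/kg). The vehicle group held 6 NMU-induced tumours from Fischer rats labelled as vehicle-treated, so both groups carry the carcinogen and neither is normal gland. Midkine itself binds heparin, as FGFs do, and the series asks how it bears on the growth of mammary tumours. Several titles share a number (midkine 3-1 and 3-2, midkine 4-1, 4-2 and 4-3, vehicle 2-1 and 2-2), which could mean tumours of 1 rat, but no label says so.

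FGF ligands signal by binding a receptor tyrosine kinase together with heparan sulfate, which joins ligand and receptor into an active complex. FGF1 binds all of the receptor kinases, whereas FGF7 and FGF10 are made by stroma and act on the epithelial splice form of FGFR2. In the mouse mammary gland, FGF10 and FGFR2 are needed for the gland to form, and in rodents FGF signalling through FGFR1 and FGFR2 supports branching. Active receptors recruit the adaptor FRS2 and the RAS and MAP kinase cascade, which switches on ETS factors and the feedback inhibitors of the Sprouty and DUSP families. The counts are per gene, so splice forms of a receptor cannot be told apart.

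Libraries held between 4925504 and 8486523 counts, with a median of 7252603. For CPM each total was multiplied by a scaling factor, 0.558 in midkine 1 and between 0.890 and 1.13 in the other libraries. Thus 1 read was 0.238 CPM in midkine 1 (7612529 counts), against 0.122 CPM in midkine 6 (7847314 counts). All CPM of midkine 1 therefore lie above its unscaled rates and are not shares of its reads. Markers of other cell types varied widely among the midkine tumours. The summed level of 12 skeletal muscle markers lay between 37.7 and 373210 CPM in midkine libraries, with the highest in midkine 1, and between 374 and 833 CPM in vehicle libraries. The summed level of 15 fibroblast and matrix markers reached 147401 CPM in midkine 5, against at most 11441 CPM in vehicle libraries. The summed level of 15 epithelial markers was lowest in midkine 1, midkine 5 and midkine 4-2, at 3034, 3650 and 3696 CPM, against 6723 to 9408 CPM in vehicle libraries. No marker in these lists was at 0 in all libraries. In bulk tissue, fewer cells of a type and less RNA per cell cannot be told apart.

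FGF1 was low in every midkine tumour and spread over a wide range in vehicle tumours. Its lowest, median and highest levels were 9.62, 23.6 and 32.0 CPM in midkine libraries, against 23.5, 69.3 and 135 CPM in vehicle libraries. All 9 midkine libraries lay below the vehicle median, 4 of them lay below the lowest vehicle library, and the other 5 overlapped with the lower vehicle libraries. The 4 were midkine 5 (9.62 CPM), midkine 1 (14.0 CPM), midkine 4-1 (18.9 CPM) and midkine 3-2 (22.8 CPM). High FGF1 was found in vehicle 2-1 (135 CPM), vehicle 2-2 (94.6 CPM) and vehicle 6 (92.5 CPM), while vehicle 5, vehicle 3 and vehicle 4 held 46.2, 32.2 and 23.5 CPM. The means were 22.6 ± 7.37 CPM under midkine (SD, n = 9) and 70.6 ± 43.4 CPM under vehicle (SD, n = 6), a log2 fold change of -1.64 with a standard error of 0.35. The coefficient of variation was 32.6% among midkine libraries and 61.5% among vehicle libraries. Leaving out single libraries moved the log2 fold change between -1.82 and -1.35, and -1.35 was the value without vehicle 2-1. Vehicle 2-1 and vehicle 2-2 share a title number, and with counts summed per group and title number the log2 fold change was -1.47.

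**Figure D1:**
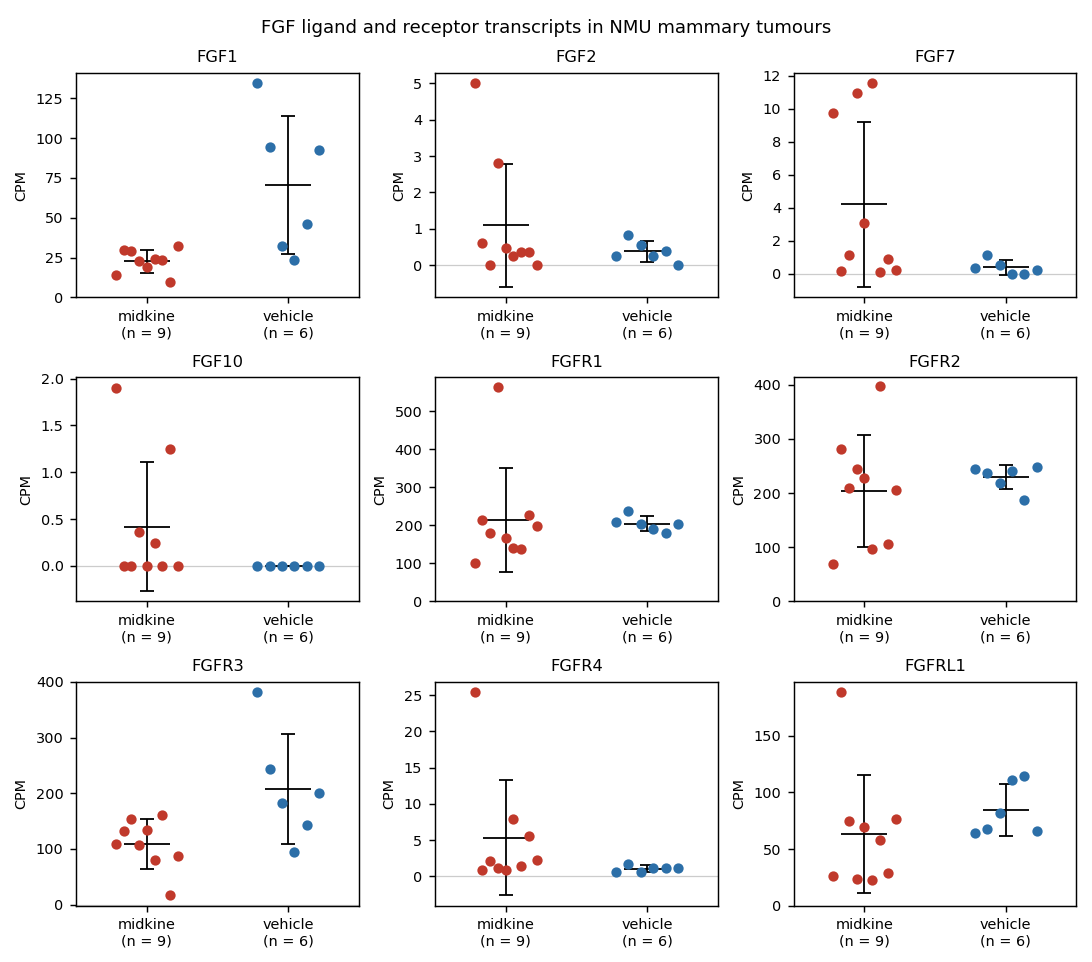
Level of each of the 9 FGF genes (vertical axis, CPM, linear, scaled separately for each gene) in the 9 midkine libraries (red, left) and the 6 vehicle libraries (blue, right); every point is 1 library, the long bar is the mean and the whiskers are 1 SD. FGF1 reaches 32.0 CPM at most under midkine and 135 CPM under vehicle, and FGFR1 and FGFR2 are spread more widely among midkine than among vehicle libraries.

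The promoter windows of FGF1 and FGFR3 are shown because these genes had a positive relation across libraries once the group means were taken off, with the limits given further on. The sequences are RefSeq windows on the assembly GRCr8, from 250 bases upstream to 50 bases downstream of the annotated start, and capitals mark GC boxes (GGGCGG or its reverse complement CCGCCC). The FGF1 window lies on the minus strand at chr18:30961344-30961643, inside the annotated gene and not at its outer end. The FGFR3 window lies on the minus strand at chr14:81227160-81227459.
FGF1: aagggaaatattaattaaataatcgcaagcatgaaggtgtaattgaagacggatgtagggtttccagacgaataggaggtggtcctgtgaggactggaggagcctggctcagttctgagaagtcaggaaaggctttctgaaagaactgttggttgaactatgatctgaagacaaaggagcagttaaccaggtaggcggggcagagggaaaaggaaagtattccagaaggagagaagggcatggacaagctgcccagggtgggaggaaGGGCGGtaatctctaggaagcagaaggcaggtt
FGFR3: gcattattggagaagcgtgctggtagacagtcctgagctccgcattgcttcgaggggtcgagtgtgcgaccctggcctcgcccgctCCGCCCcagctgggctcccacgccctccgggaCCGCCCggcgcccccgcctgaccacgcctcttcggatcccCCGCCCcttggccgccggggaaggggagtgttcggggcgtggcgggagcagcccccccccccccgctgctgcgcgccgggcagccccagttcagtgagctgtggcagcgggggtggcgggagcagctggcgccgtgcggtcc
The FGF1 window had a GC content of 48.3%, 5 CpG dinucleotides and 1 GC box. The FGFR3 window had a GC content of 74.7%, 31 CpG dinucleotides and 3 GC boxes. Over 33469 rat promoter windows of the same length the median GC content was 51.7% and the median CpG count 7, and 33.1% of windows held a GC box on either strand. The TATA box letters TATAAA, found in 14.2% of windows, and the E-box letters CACGTG, found in 6.42%, occurred in neither window. The CCAAT box letters, found in 37.5% of windows on either strand, occurred in the FGFR3 window (1 match) but not in that of FGF1, and no matched motifs overlapped. The counts themselves rest on the build rn6, so these windows illustrate the genes and were not measured.

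The other ligands of the set had few or no reads in most libraries. FGF2, the basic FGF found in many stromal and epithelial cells, totalled 58 reads over the midkine libraries and 17 over the vehicle libraries. Its highest levels were 5.0 CPM in midkine 1 and 2.81 CPM in midkine 3-2, against 0.818 CPM in the highest vehicle library. FGF7, the keratinocyte growth factor, had 263 reads under midkine and 19 under vehicle. Of the FGF7 reads, 96, 90 and 41 came from midkine 4-2, midkine 3-2 and midkine 1, where its level was 11.5, 10.99 and 9.76 CPM. In the other 6 midkine libraries FGF7 lay between 0.124 and 3.11 CPM, against 0 to 1.17 CPM in vehicle libraries, so the groups overlapped. FGF10 had 20 reads in 4 of 9 midkine libraries, with 8 in midkine 1 and 7 in midkine 5, and no read in the 6 vehicle libraries. Taking 3 counts as the limit that 0 of 41353565 vehicle counts allows, the unscaled rate under midkine was 4.31 times that limit. The limit covers counting error in the vehicle group only. It does not cover the counting error of the 20 midkine reads or the spread between libraries. FGF2, FGF7 and FGF10 did not pass the filter on low counts and entered no test.

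No receptor passed the genome-wide test. By edgeR's quasi-likelihood test with Benjamini-Hochberg adjustment, 0 of the 5 receptor genes and 0 of all 11665 genes tested (0%) differed between midkine and vehicle at an adjusted p under 0.05. At an unadjusted p under 0.05 there were 1178 genes (10.1%), among them FGFR3 and FGFR4. DESeq2 called 83 genes (0.712%), none of the receptors among them, and limma-voom called 0. The log2 fold change was below 0 for 3 of the 5 receptors and for 44.3% of all genes. No member had groups that did not overlap, a pattern found in 2 genes (0.0171%).

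**Figure D2:**
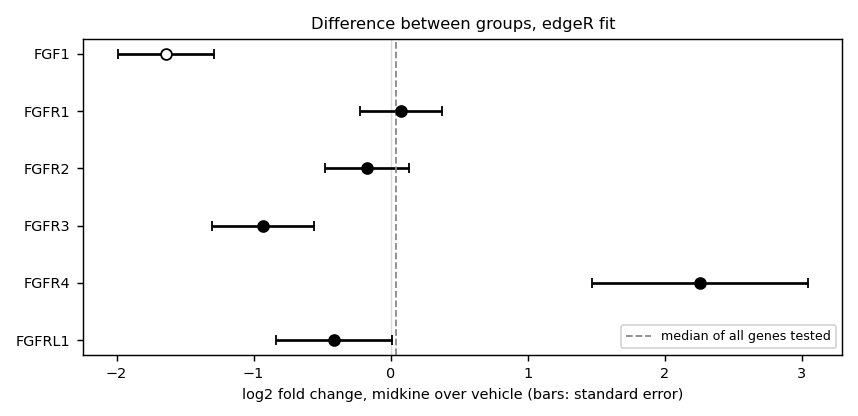
Log2 fold change of midkine over vehicle (horizontal axis) for the 6 members that passed the filter on low counts, from the edgeR fit over 9 midkine and 6 vehicle libraries; bars are standard errors, the dashed line is the median of all genes tested (0.04), and the open point is FGF1, shown as a description. FGFR1 and FGFR2 lie near 0, FGFR3 lies at -0.93 and FGFR4 at 2.26 with the longest bar.

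FGFR3, a receptor kinase of epithelia and cartilage, had a lower mean under midkine, by less than the genome-wide test requires. Its lowest, median and highest levels were 16.4, 109 and 161 CPM in midkine libraries, against 94.9, 192 and 382 CPM in vehicle libraries. All 9 midkine libraries lay below the vehicle median, 3 lay below the lowest vehicle library, and 6 overlapped with the vehicle range. The means were 109 ± 44.6 CPM under midkine (SD, n = 9) and 208 ± 99.5 CPM under vehicle (SD, n = 6). The log2 fold change was -0.93 with a standard error of 0.37 (edgeR, unadjusted p = 0.0238, adjusted p = 0.431), so the difference did not pass the test. Leaving out single libraries gave log2 fold changes between -1.08 and -0.67, with adjusted p between 0.327 and 0.770. Midkine 5 stood lowest with 92 reads for FGFR3, and vehicle 2-1 stood highest with 3075.

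FGFR4, the receptor best known for control of bile acid synthesis in liver, was near its detection limit in most tumours. Its lowest, median and highest levels were 0.895, 2.13 and 25.5 CPM in midkine libraries, against 0.563, 1.16 and 1.75 CPM in vehicle libraries. Of the 9 midkine libraries, 5 lay above the highest vehicle library and 4 within the vehicle range. The high values came from midkine 1 (107 reads, 25.5 CPM), midkine 4-2 (66 reads, 7.94 CPM) and midkine 5 (31 reads, 5.52 CPM). The means were 5.30 ± 7.94 CPM under midkine (SD, n = 9) and 1.07 ± 0.437 CPM under vehicle (SD, n = 6). The log2 fold change was 2.26 with a standard error of 0.79 (edgeR, unadjusted p = 0.0112, adjusted p = 0.399). Without midkine 1 it was 1.36, and under limma-voom 1.28. The 3 libraries with most FGFR4 were those with the lowest summed epithelial markers, and midkine 1 also held the 373210 CPM of skeletal muscle markers; the part of these cell types in the FGFR4 level was not tested.

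FGFR2, the receptor of FGF7 and FGF10 in epithelia, and FGFR1, the receptor of mesenchymal FGF signals that also occurs in mammary epithelium, had similar averages but unequal spreads. FGFR2 had lowest, median and highest levels of 69.0, 209 and 397 CPM in midkine libraries, against 188, 239 and 249 CPM in vehicle libraries. Of the 9 midkine libraries, 3 lay below all vehicle libraries, 2 lay above and 4 within. The means of FGFR2 were 204 ± 103 CPM under midkine (SD, n = 9) and 229.7 ± 22.9 CPM under vehicle (SD, n = 6), with a log2 fold change of -0.17 ± 0.31 (SE) and an adjusted p of 0.896 (edgeR). Differences from -0.78 to 0.44 on the log2 scale lie within 2 standard errors. The 3 low libraries were midkine 1, midkine 4-2 and midkine 5, at 69.0, 97.2 and 106 CPM. Midkine 4-1, 4-2 and 4-3, which share a title number, held 228, 97.2 and 397 CPM. Without midkine 1 and midkine 5 the log2 fold change was 0.045.

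FGFR1 had lowest, median and highest levels of 101, 181 and 564 CPM in midkine libraries, against 180.4, 203 and 237 CPM in vehicle libraries. Only midkine 3-2 lay above the vehicle range, at 564 CPM, while 4 midkine libraries lay below it and 4 within it. Midkine 3-1, which shares a title number with midkine 3-2, held 181 CPM. The means of FGFR1 were 215 ± 137 CPM under midkine (SD, n = 9) and 204 ± 19.3 CPM under vehicle (SD, n = 6), with a log2 fold change of 0.07 ± 0.30 (SE) and an adjusted p of 0.961 (edgeR). Differences from -0.52 to 0.67 lie within 2 standard errors, and without midkine 3-2 the log2 fold change was -0.25. The highest level was 5.56 times the lowest among midkine libraries and 1.32 times the lowest among vehicle libraries for FGFR1. For FGFR2 the same ratios were 5.75 and 1.32. The ratios compare 9 with 6 libraries, and a range tends to widen with more libraries. No test of the difference in spread was run, and how many of all genes spread more widely under midkine was not counted.

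FGFRL1, which binds FGFs but lacks a kinase domain, varied more than the group difference. Its lowest, median and highest levels were 22.6, 57.8 and 189 CPM in midkine libraries, against 64.4, 75.0 and 115 CPM in vehicle libraries. Of the 9 midkine libraries, 5 lay below all vehicle libraries, 1 lay above and 3 within. The means were 63.2 ± 52.3 CPM under midkine (SD, n = 9) and 84.3 ± 23.0 CPM under vehicle (SD, n = 6), with a log2 fold change of -0.41 ± 0.42 (SE) and an adjusted p of 0.801 (edgeR). The library above the vehicle range was midkine 2 at 189 CPM, and without it the log2 fold change was -0.83. Midkine 4-2, midkine 3-2, midkine 1 and midkine 5 were low, between 22.6 and 28.7 CPM.

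Members were next compared with each other across libraries, after the mean of each treatment group had been taken off, so that the group difference itself does not enter. FGF1 and FGFR3 varied in the same direction, with a Pearson r of 0.71 over 15 libraries (permutation p = 0.0017, adjusted over 15 pairs of members 0.0127). Within groups r was 0.72 among the 9 midkine libraries (exact permutation p = 0.0548) and 0.89 among the 6 vehicle libraries (exact permutation p = 0.0153). Spearman's rho was 0.35 (permutation p = 0.248, adjusted p = 0.626), and r was 0.48 without vehicle 4 and midkine 5, the libraries farthest from the median, so the relation rests in part on them. The permutation p of r, adjusted over the pairs, was 0.227 without midkine 5 alone and 0.0582 without vehicle 4 alone. Vehicle 2-1, 2-2 and 6 held the most of both genes, and midkine 5 the least of both. Vehicle 2-1 and 2-2 share a title number, and the permutations treat them as separate libraries.

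**Figure D3:**
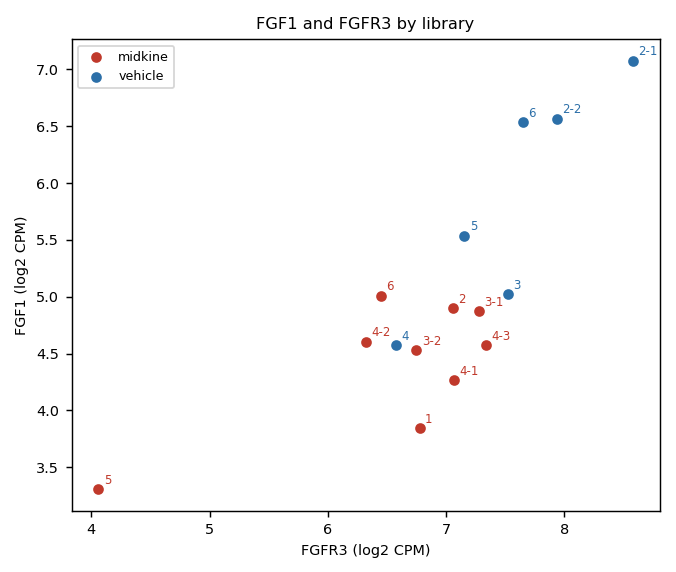
FGF1 (vertical axis) against FGFR3 (horizontal axis), both as log2 CPM with a prior count of 2, for 9 midkine (red) and 6 vehicle (blue) libraries labelled by title number. Vehicle 2-1, 2-2 and 6 lie at the upper right and midkine 5 lies alone at the lower left; the within-group r is 0.72 under midkine and 0.89 under vehicle.

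FGFR2 and FGFR4 were the other pair that passed, in opposite directions, but the libraries fell into separate clusters. Midkine 1, midkine 4-2 and midkine 5 had little FGFR2 and the most FGFR4. Over the other 12 libraries r was -0.12 (permutation p = 0.704, adjusted over 7 relations 0.743) and rho -0.33 (permutation p = 0.297). These 2 values use levels without the group means taken off, unlike the comparison in which the pair passed. On that measure the relation did not pass outside those 3 libraries. The same 3 libraries stood apart by their mean log2 level of epithelial markers, 7.14 to 7.37, while the other 12 libraries lay between 8.10 and 8.99. FGFR2, FGFR3 and FGFR4 each passed against the epithelial markers over all 15 libraries, FGFR2 and FGFR3 with a positive and FGFR4 with a negative sign, but no coefficient over separate clusters is given. For FGFR2 and FGFR4 the call was lost without midkine 1 and midkine 5 and under no other alternative run. For FGFR3 (permutation test, adjusted p = 0.0474) the call was kept under 6 of the alternatives run and lost under 15. For FGFR2 against the epithelial markers, r over the 12 was 0.53 (permutation p = 0.0792, adjusted p = 0.277) with a rho of 0.24 (permutation p = 0.460). For FGFR3 it was 0.16 (permutation p = 0.623, adjusted p = 0.743) and for FGFR4 -0.23 (permutation p = 0.470, adjusted p = 0.743). Over all 15 libraries FGFR3 also passed against the endothelial markers, with r of -0.70 (permutation test, adjusted p = 0.00978). That call was kept under 19 alternatives and lost under 2, both without midkine 5. Within groups r was -0.65 under midkine (exact permutation p = 0.0599) and -0.43 under vehicle (exact permutation p = 0.418). Against the fibroblast and matrix markers r was -0.65 (permutation test, adjusted p = 0.0409). That call was kept under 13 and lost under 8.

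FGFRL1 followed the basal and myoepithelial markers, which include TP63, KRT5, KRT14 and smooth muscle proteins of the contractile cell layer. Over all 15 libraries r was 0.91 (permutation p = 5e-05, adjusted over 30 relations 0.0015) and rho was 0.83 (permutation p = 0.00021, adjusted p = 0.0063). It was 0.86 without midkine 3-2 and midkine 1, the libraries farthest from the median score. Within groups r was 0.95 among midkine libraries (exact permutation p = 0.000543) and 0.47 among vehicle libraries (exact permutation p = 0.369). Without the 4 libraries of lowest basal score, midkine 1, 3-2, 4-2 and 5, r over the other 11 was 0.70 (permutation p = 0.0207, adjusted p = 0.145). In all, 13 of the 30 relations between a member and a marker score passed by Pearson's r, 6 of them positive and 7 negative, and 1 passed by Spearman's rho. Of the 13, 1 is FGF1 with the endothelial markers, which draws on the contrast that chose FGF1. Only 6 of the 13 kept an unadjusted p under 0.05 without the 2 farthest libraries, and 0 of the 13 reached it among the 6 vehicle libraries alone.

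Against the endothelial markers, FGF1 had a Pearson r of -0.56 among the 9 midkine libraries (exact permutation p = 0.121) and of -0.29 among the 6 vehicle libraries (exact permutation p = 0.561). Among midkine libraries r was -0.62 with the fibroblast and matrix, 0.57 with the epithelial and 0.49 with the basal and myoepithelial markers. Among vehicle libraries the same values were -0.10, 0.41 and -0.85, the last with an unadjusted exact permutation p of 0.0264. The endothelial markers did not stand out from these lists. Over both groups, r is given for FGF1 only with the group means taken off. Without that step it would draw on the contrast by which the gene was chosen. The summed level of 11 endothelial markers lay between 246 and 1165 CPM under midkine, against 209.9 to 490.2 CPM under vehicle. Of the 10 endothelial markers tested, 10 had a log2 fold change above 0, none passed the test, and CLDN5 had 48.3 ± 48.1 CPM under midkine against 10.3 ± 6.99 CPM under vehicle (SD, n = 9 and 6). The part of endothelial cells in the FGF1 level was not tested.

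**Figure D4:**
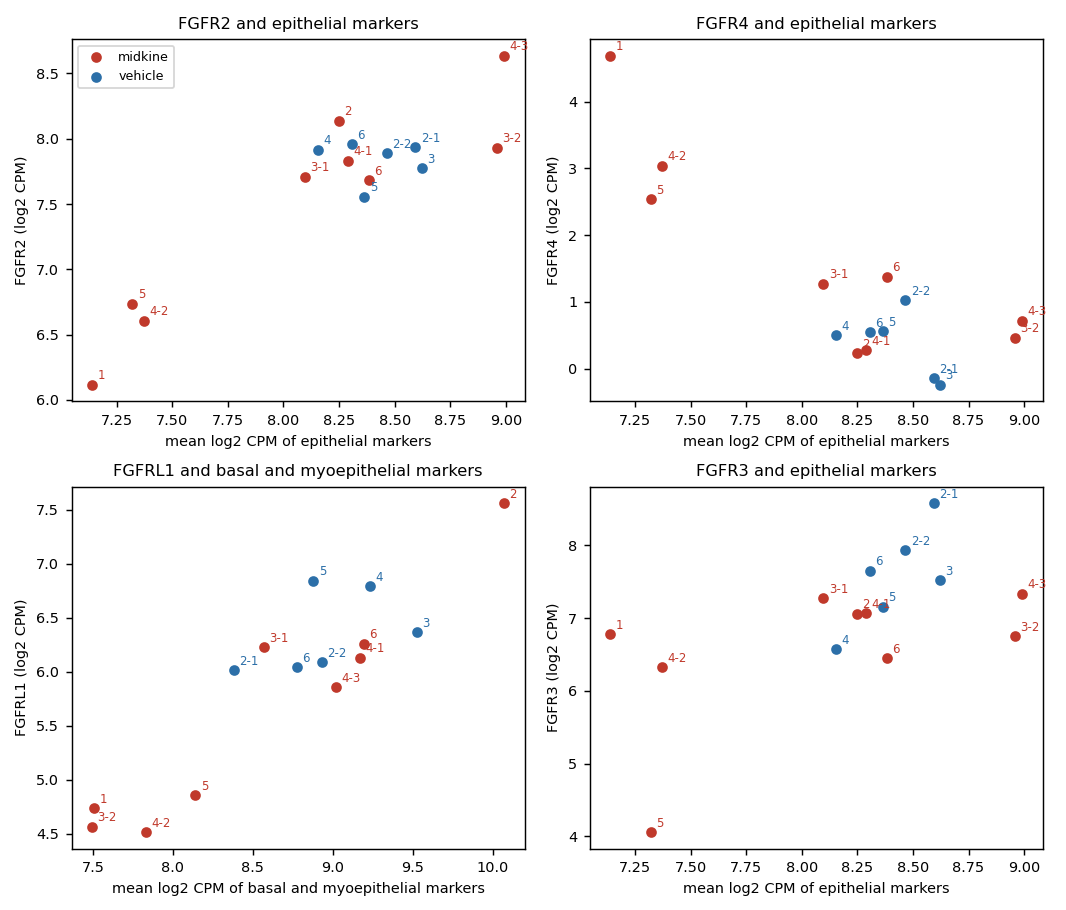
Level of FGFR2, FGFR4, FGFRL1 and FGFR3 (vertical axes, log2 CPM) against the mean log2 CPM of epithelial or of basal and myoepithelial markers (horizontal axes) in 9 midkine (red) and 6 vehicle (blue) libraries labelled by title number. Midkine 1, 4-2 and 5 lie apart from the other 12 libraries along the epithelial score, with low FGFR2 and high FGFR4, and FGFRL1 lies higher where basal markers are higher.

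The genes most like FGF1 in their variation within groups were RAPH1, ARRDC1, ADCY7, OGFOD2 and NCKIPSD, with Pearson r between 0.83 and 0.86 over 15 libraries among 11064 genes compared. FGFR3 ranked at place 66 by the same measure. The genes most like FGFR1 were CDC42BPB, MLLT1, RYBP, FRMD6 and PARD6B, with r between 0.90 and 0.92. Those most like FGFR2 were GOLM2, KRT18, JUP, EPHA1 and LYPD3, with r between 0.91 and 0.92. KRT18 encodes a keratin of simple epithelia and JUP the junction protein plakoglobin. KRT18 is also 1 of the epithelial markers. It was lowest in midkine 1, 4-2 and 5, the libraries with least FGFR2, so its r spans the same separate clusters. These values share libraries and their depth, and describe likeness without a test.

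Most other FGF ligands had few reads or none. Of 18 further ligand genes 4 passed the filter, FGF9, FGF11, FGF13 and FGF22, of which 2 had a log2 fold change above 0, 2 below, and none passed the test. FGF13, an intracellular member of the family that does not act on receptors in the usual way, had 11.4 ± 13.0 CPM under midkine and 10.1 ± 5.88 CPM under vehicle (SD, n = 9 and 6). FGF22 had 2.47 ± 0.780 CPM under midkine and 3.02 ± 1.09 CPM under vehicle. FGF9 had 2.11 ± 1.63 CPM under midkine and 2.09 ± 1.84 CPM under vehicle, and FGF11 had 2.57 ± 1.35 CPM under midkine and 2.58 ± 1.45 CPM under vehicle. FGF4 and FGF20 had no read in any of the 15 libraries.

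Among co-receptors, binding proteins and enzymes that shape heparan sulfate, 7 of 13 genes tested had a log2 fold change above 0 and 6 below, with a median of 0.05 beside 0.04 for all genes, and none passed the test. SULF1, an extracellular enzyme that removes 6-O-sulfate from heparan sulfate and so weakens FGF binding, had 27.2 ± 19.2 CPM under midkine and 7.70 ± 4.64 CPM under vehicle (SD, n = 9 and 6). Its log2 fold change was 1.82 with a standard error of 0.53 (edgeR, unadjusted p = 0.00338, adjusted p = 0.399). SULF1 was highest in midkine 4-2, at 64.7 CPM, and lowest among midkine libraries in midkine 5, at 5.52 CPM, within the vehicle range of 4.10 to 15.9 CPM. SULF2, which acts on the same sulfates, had 215 ± 65.7 CPM under midkine and 255 ± 62.8 CPM under vehicle (adjusted p = 0.769, edgeR). HS2ST1, which adds 2-O-sulfate, had a log2 fold change of -0.24 ± 0.12 (SE, adjusted p = 0.525, edgeR). FLRT3, a membrane protein that binds FGF receptors, had one of 1.34 ± 0.71 (SE, adjusted p = 0.557, edgeR). Of the 14 fibroblast and matrix markers tested, 13 had a log2 fold change above 0, with a median of 1.55, and their part in the SULF1 level was not tested.

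Of 16 adaptor and cascade genes tested, 14 had a log2 fold change above 0 and 2 below, with a median of 0.19, and none passed the test. GRB2, the adaptor that links receptors to RAS activation, had 139 ± 59.5 CPM under midkine and 94.4 ± 16.0 CPM under vehicle (SD, n = 9 and 6), a log2 fold change of 0.56 ± 0.23 (SE, adjusted p = 0.442, edgeR). The adaptors CRK and CRKL had log2 fold changes of 0.64 and 0.63, and the kinase MAP2K1 one of 0.35. Each of these 4 genes was highest in midkine 3-2, the library with the most FGFR1, and without it the log2 fold change of CRK was 0.16 and that of GRB2 0.38.

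Genes that FGF signalling switches on did not pass the test either. Of 19 response and feedback genes tested, 7 had a log2 fold change above 0 and 12 below, with a median of -0.16 beside 0.04 for all genes. The mean log2 level of these genes was lowest in midkine 1, midkine 5 and midkine 4-2, at 4.46, 4.68 and 4.89, and lay between 5.17 and 6.30 in the other 12 libraries. They are the libraries with the lowest epithelial markers, whose part in the response genes was not tested. Without midkine 1 and midkine 5, 9 of the 19 genes were above 0 and 10 below, with a median of -0.054. CCND1, the cyclin D1 gene that drives entry into the cell cycle, had lowest, median and highest levels of 308, 591 and 999 CPM in midkine libraries, against 821, 903 and 1473 CPM in vehicle libraries. Of the 9 midkine libraries, 7 lay below all vehicle libraries and 2 within their range. The means of CCND1 were 584 ± 253 CPM under midkine (SD, n = 9) and 1000.4 ± 248 CPM under vehicle (SD, n = 6), a log2 fold change of -0.78 ± 0.27 (SE, unadjusted p = 0.0112, adjusted p = 0.399, edgeR). Midkine 1, 3-2, 4-2 and 5 held the least CCND1, between 308 and 386 CPM, and without midkine 1 and midkine 5 the log2 fold change was -0.62.

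The ETS factor ETV4 had 92.2 ± 65.9 CPM under midkine and 174 ± 86.6 CPM under vehicle (SD, n = 9 and 6), a log2 fold change of -0.92 ± 0.47 (SE, adjusted p = 0.542, edgeR). Its relative ETV5 had a log2 fold change of -0.65 and the phosphatase gene DUSP6, a feedback inhibitor of ERK, one of -0.42. IL17RD, a membrane inhibitor of FGF receptors, had 1.91 ± 0.957 CPM under midkine and 4.09 ± 3.82 CPM under vehicle, and its log2 fold change of -1.08 was -0.49 without vehicle 6. FOSL1, a subunit of the AP-1 factor, had the log2 fold change farthest above 0 in the list, 3.51 ± 1.29 (SE, adjusted p = 0.399, edgeR). That value came from midkine 3-2, at 505 CPM, while the other 8 midkine libraries lay between 1.43 and 11.5 CPM, against 2.49 to 7.73 CPM in vehicle libraries. Without midkine 3-2 the log2 fold change of FOSL1 was 0.41.

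**Figure D5:**
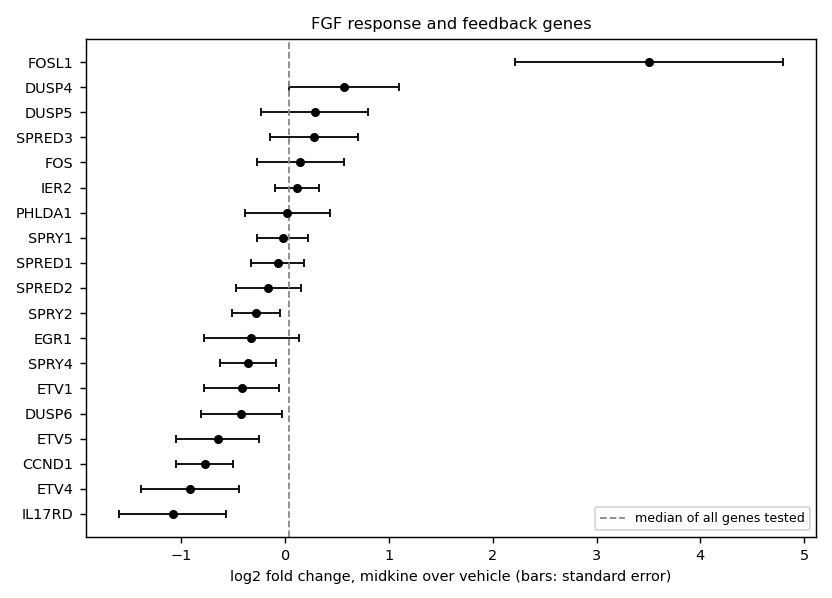
Log2 fold change of midkine over vehicle (horizontal axis) for the 19 FGF response and feedback genes that passed the filter on low counts; points are the edgeR estimates over 9 midkine and 6 vehicle libraries, bars are standard errors, and the dashed line is the median of all genes tested. FOSL1 lies at 3.51, with 505 CPM in midkine 3-2, and 12 of the 19 genes lie below 0.

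Across the 15 libraries the level of FGFR1 rose with that of the response genes, a call kept under 15 of the alternatives run and lost under 6. Its r with their mean log2 level was 0.67 (permutation p = 0.00747, adjusted p = 0.032). Without midkine 1 and midkine 5 r was 0.73 and did not pass (permutation test, adjusted p = 0.0586). The rho of 0.46 did not pass (permutation p = 0.0883, adjusted p = 0.172), and r was 0.72 among midkine libraries (exact permutation p = 0.0267) and 0.10 among vehicle libraries (exact permutation p = 0.878). Leaving out midkine 3-2, midkine 1 or midkine 4-2 singly gave r of 0.51, 0.55 and 0.64 (permutation test, adjusted p = 0.0798, 0.0977 and 0.0649), so the relation did not pass without any 1 of them. Nor did it pass with levels averaged per group and title number (r = 0.64, permutation test, adjusted p = 0.0729). Without midkine title numbers 3 and 4 r was 0.57 (permutation test, adjusted p = 0.149).

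FGFR2 and FGFR4 had relations with the same genes of similar or larger size. For FGFR2, r was 0.78 (permutation p = 0.00087, adjusted p = 0.00652) and rho 0.51 (permutation p = 0.0555, adjusted p = 0.139). It passed when any single library was left out, with adjusted p of at most 0.0382, but r was 0.51 without midkine 1 and midkine 5 (permutation p = 0.0835). Within groups it was 0.81 among midkine libraries (exact permutation p = 0.00797) and 0.20 among vehicle libraries (exact permutation p = 0.658). For FGFR4, r was -0.71 (permutation p = 0.00314, adjusted p = 0.0157) and rho -0.28 (permutation p = 0.314, adjusted p = 0.408), with r of -0.35 without midkine 1 and midkine 5 (permutation p = 0.233). Within groups it was -0.80 among midkine libraries (exact permutation p = 0.00801) and 0.53 among vehicle libraries (exact permutation p = 0.258). Over the 12 libraries other than midkine 1, 4-2 and 5, r was 0.093 for FGFR2 (permutation p = 0.743, adjusted over 7 relations 0.743) and 0.25 for FGFR4 (permutation p = 0.435, adjusted p = 0.743), so both relations rest on those 3 libraries. FGF1 had an r of 0.68 with the response genes among midkine libraries (exact permutation p = 0.0412) and of 0.64 among vehicle libraries (exact permutation p = 0.176), neither adjusted. Midkine 1 and midkine 5 held the least FGF1 (14.0 and 9.62 CPM) and had the lowest mean level of the response genes. No r among the midkine libraries without them was computed, so how far it rests on them was not tested.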

How the data were processed

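RNA of each tumour (3000 ng) went into libraries after poly(A) selection and was sequenced as 150-bp read pairs by an Illumina machine, as the labels' protocols state. What the authors deposited is a table of raw read counts, 17463 symbols by 15 libraries, not normalized (per the file headers and values). The genome build was rn6, per the submitters' processing notes. How reads were aligned and counted, and whether strand was used, is not given in the sources used here, and overlapping genes may share reads. No label gives a batch or date, and the title numbers did not pair the groups. Whether libraries with 1 number share an animal is not given, so p-values measure the spread between these libraries, which may be technical or lie within an animal. All libraries of a group differed by more than counting noise (lowest chi-square per degree of freedom 20.3, genes averaging 20 counts or more).

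The group test was edgeR 4.0.16 in R 4.3.3 (expression filter by group, which left 11665 genes, trimmed mean of M-values scaling, quasi-likelihood F test of 9 midkine against 6 vehicle libraries, Benjamini-Hochberg adjustment over all genes tested, threshold 0.05). Standard errors follow from each log2 fold change and its F value. Relations use log2 CPM with a prior count of 2 and two-sided permutation tests with 100000 resamples, or all orders where a group is small; the limit at 0 covers counting error only, while bounds of 2 standard errors include the spread between libraries. Alternatives were DESeq2 1.42.0, limma-voom 3.58.1, other scalings and filters, and libraries left out or summed by title number. The edgeR test was also run on simulated counts with known changes. Promoter windows are from RefSeq on GRCr8, matched by symbol for 8 of 9 members.

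The members and gene lists were chosen with earlier results of these data known. Named were all members, up to 4 genes of smallest p in each list (fewer for cell type markers), and the 5 genes most like FGF1, FGFR1 and FGFR2 by Pearson r after centring within groups (mean log2 CPM of at least 1). ETV5 and DUSP6 were chosen after their values were seen. So were the comparison among members, the fit without midkine 1 and midkine 5, and the relations without the libraries of lowest marker score. KLB, GLCE, HSPG2, CBL, KRT7 and COL6A3 were not analysed here, and the rat gene of the FGF15 entry was read as FGF19, its symbol on GRCr8. Adipocyte and macrophage markers, tested as further lists, had 5 of 5 and 12 of 12 log2 fold changes above 0, with medians of 1.17 and 0.96, epithelial markers 3 of 15 (median -0.20), basal and myoepithelial markers 2 of 11 (median -0.37), endothelial markers 10 of 10 (median 0.79) and skeletal muscle markers 12 of 12 (median 6.36), none past the test. Without midkine 1 and midkine 5 the epithelial markers had 7 of 15 above 0, the basal and myoepithelial markers 5 of 11 and the skeletal muscle markers 0 of 12. The fibroblast and matrix markers still had 13 of 14 above 0 (median 0.78) and the endothelial markers 10 of 10 (median 0.73). Adipocyte markers had 5 of 5 (median 0.88) and macrophage markers 12 of 12 (median 1.14).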

Additional observations from a re-analysis of the deposited data

Results flagged for a closer look

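In the midkine group, 3 members had 1 library far above the other 8, with a gap to the next library larger than Dixon's 95% critical value for 9 samples. FGFR1 reached 564 CPM in midkine 3-2, and the next library held 228 CPM. FGFR4 reached 25.5 CPM in midkine 1, and the next held 7.94 CPM. FGFRL1 reached 189 CPM in midkine 2, and the next held 76.4 CPM. Chance flags about 1 in 20 groups where values are normally distributed, and 17 group ranges were looked at here. The rule was run on linear CPM, which need not be normal, so the share that chance flags here is not known.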

How the results depend on the processing

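No FGF receptor gene passed the test under any of the 24 alternatives, 0 in each, and FGF1, FGFR3, FGFR4 and FGFRL1 kept the sign of their log2 fold change in every alternative that gave a value. FGF1 lay between -1.82 and -1.17, FGFR3 between -1.26 and -0.67, FGFR4 between 1.18 and 2.96 and FGFRL1 between -0.83 and -0.06. FGFR1 turned to -0.10 under limma-voom, to -0.12 without midkine title numbers 3 and 4, and to -0.25 without midkine 3-2, where it lost its highest library; leaving out single libraries gave -0.25 to 0.19. FGFR2 turned to 0.045 without midkine 1 and midkine 5. FGFR4 did not pass the filter without midkine 1 and midkine 5 and gave no value there.

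The 13 relations between members and marker scores became 1 without midkine 1 and midkine 5, and between 5 and 16 when single libraries were left out, with 5 without midkine 5, 7 without midkine 4-2 and 8 without vehicle 4. The 2 pairs of members became 0 without midkine title numbers 3 and 4 and 0 without midkine 1 and midkine 5, and between 0 and 2 when single libraries were left out, with 0 without midkine 5 and 1 each without midkine 1 and vehicle 4. The cause was not tested.

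Libraries of the same title number did not vary together across groups (correlations of deviations from -0.24 to 0.14 over 5 shared numbers, 4 of them negative), so the numbers are not taken as pairs. With the title number as replicate block, 0 receptors passed and 323 genes had an unadjusted p under 0.05, against 1178 without it; FGF1 was -1.17, FGFR3 -1.01 and FGFR4 1.18. Depth limits FGF2, FGF7, FGF10 and FGFR4, which rest on few reads in most libraries. DESeq2 called 83 genes, 77 higher and 6 lower under midkine, where edgeR called 0.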
